A study of Mus musculus with 32 samples.

Results

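Islets that carry the human form of islet amyloid polypeptide were compared with islets that carry the mouse form, after culture of both at 16.7 mM glucose. The comparison takes 16 of the 32 RNA-seq libraries of the series, 8 of each genotype, chosen by the genotype and glucose concentration in their labels and paired by the numbered experiment set they share. In the hIAPP mice the human gene replaces the mouse Iapp gene at its own locus by homologous recombination, so the animal's own promoter drives it. The mIAPP mice are their wild-type littermates. All mice were C57BL/6NHsd, of both sexes and 10 weeks old, and their islets recovered overnight at 11.1 mM glucose before 48 h at 11.1 or 16.7 mM. Each of the 8 sets held both genotypes at both concentrations, and poly(A)-selected RNA from whole, hand-picked islets was sequenced. Whether an islet preparation pooled several animals is not given in the sources used here. The p-values measure the spread that remains between libraries once differences between sets are taken out, and the spread between animals is not known.

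Islet amyloid polypeptide (also called amylin) is a peptide hormone that beta cells store and release together with insulin. The human peptide can aggregate into amyloid fibrils, while the mouse peptide differs in its sequence and does not form them, and culture of hIAPP islets at high glucose is a standard way to let amyloid form outside the animal. Amyloid deposits in islets are a hallmark of type 2 diabetes and are known for attracting macrophages and for their toxicity to beta cells.

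The 16 libraries held 24.5 to 43.7 M estimated counts (M for 1000000). Levels below are in counts per 1000000 (CPM) after scaling for library composition (TMM), and a call is an adjusted p under 0.05 in edgeR's quasi-likelihood test with Benjamini-Hochberg adjustment over the 16428 genes tested, with the experiment set as a block. Mitochondrially encoded genes took 2.68 to 6.76% of the counts in hIAPP libraries (median 3.50%) and 2.84 to 37.0% in mIAPP libraries (median 7.29%). The share was lower in hIAPP in 8 of 8 sets, with a mean difference of -7.21 percentage points, with p = 0.0078 in a two-sided exact sign-flip permutation test over the sets, the smallest p that 8 pairs allow. The mIAPP library of set 7 stood farthest apart, at 37.0%, and without set 7 the mean difference was -3.88 percentage points. Both insulin genes together took 17.9% of counts in hIAPP and 19.4% in mIAPP on average (exact permutation p = 0.211 over 8 sets), and as a share of the counts outside mitochondrially encoded genes they differed by -3.39 percentage points (exact permutation p = 0.0078). At 11.1 mM the mitochondrial share was 5.23 to 27.2% in hIAPP libraries (median 18.1%) and 3.49 to 34.7% in mIAPP libraries (median 20.4%). The fit below with this share as a covariate takes in those libraries too.

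At 16.7 mM, 3371 of 16428 genes differed between the genotypes (20.5%), of which 1523 were higher in hIAPP (9.27%) and 1848 lower (11.2%). Of these, 248 (1.51%) were over 2-fold higher and 404 (2.46%) over 2-fold lower. The hIAPP libraries all lay above all mIAPP libraries for 393 genes (2.39%) and all below for 96 (0.584%). The number of calls depended on how the libraries were modelled: it was 1301 without the set as a block, 752 with the mitochondrial share of each library as a covariate (4.58%; 429 higher, 2.61%, and 323 lower, 1.97%), and 1133 of 17145 genes (6.61%; 751 higher, 4.38%, and 382 lower, 2.23%) in the libraries under 10% mitochondrial, which keep 8 hIAPP and 5 mIAPP libraries. Without set 7 the calls numbered 1943. An unadjusted p under 0.05 was found for 5942 of the 16428 genes as reported and for 2444 with the covariate. A set of 338 higher genes (2.06%) and 154 lower genes (0.937%) was called under the reported fit and all 20 alternatives in which the gene was tested. The part that the mitochondrial share has in the other calls was not tested, and for each list that held a call the calls with that covariate are given near its count. The list counts below stand against 9.27% higher and 11.2% lower over all genes, or 2.61% and 1.97% with the covariate.

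**Figure D1:**
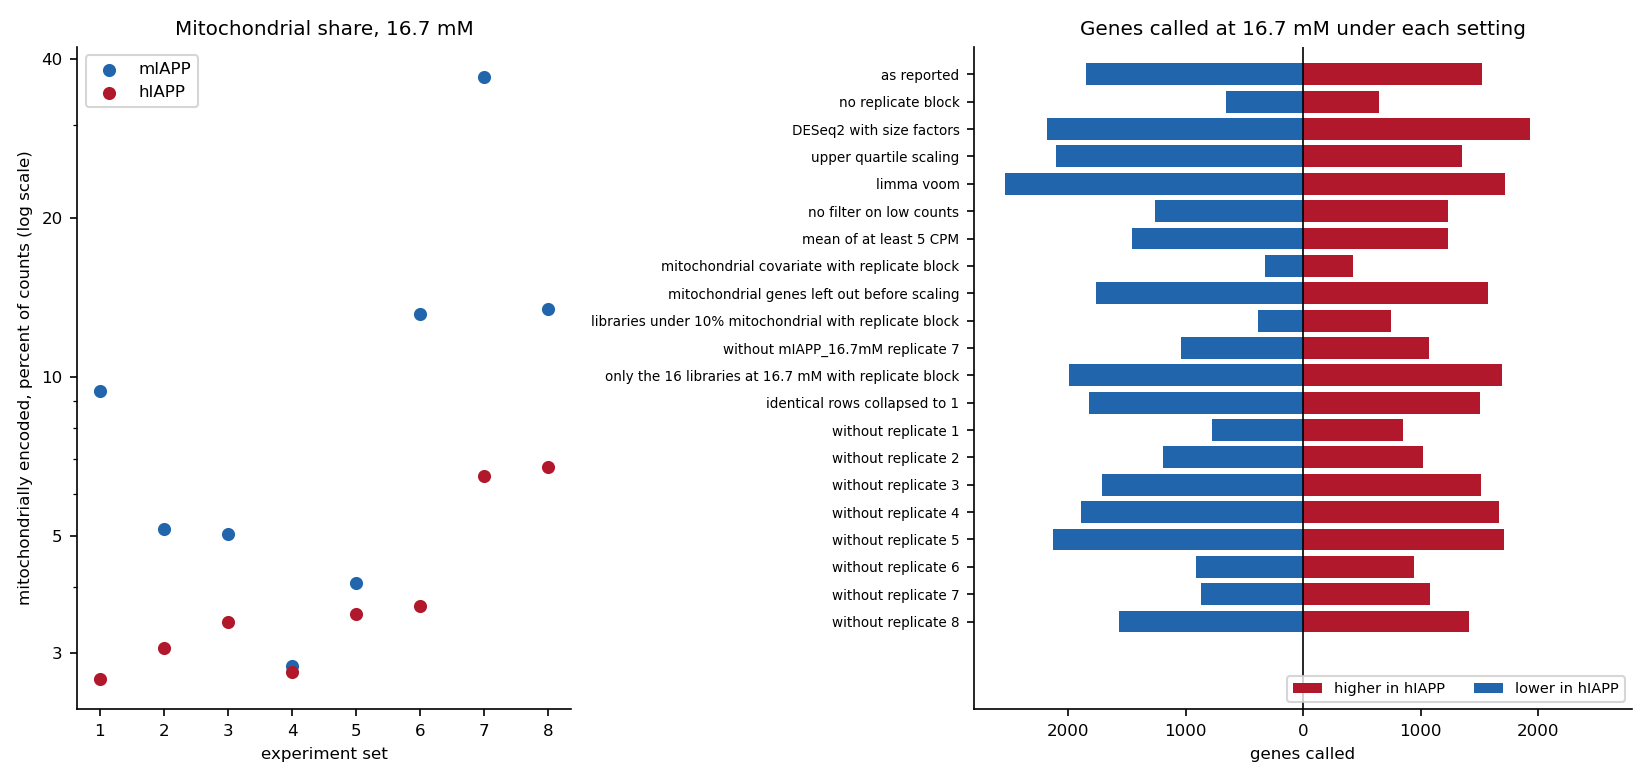
Left, mitochondrially encoded counts as a percentage of each library (log scale) by experiment set at 16.7 mM, with the hIAPP point below the mIAPP point in 8 of 8 sets and the mIAPP library of set 7 at 37.0%. Right, genes called higher and lower in hIAPP under the reported fit and each alternative, from 752 to 4251 in all, where replicate numbers are experiment sets.

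Iapp itself (chr6:142298423-142303961, GRCm38) ranged over 9764 to 11582 CPM (median 11090.5) in hIAPP and 16864 to 30408 CPM (median 24438) in mIAPP. Every hIAPP library lay below every mIAPP library. The difference was -1.14 ± 0.11 on the log2 scale (SE, adjusted p = 4.21e-08 in edgeR's test, lower in 8 of 8 sets), and it was -0.83 ± 0.11 at 11.1 mM (adjusted p = 4.24e-05). These counts were assigned against transcripts whose human content is not given in the sources used here, so the value in hIAPP islets is not a measure of the human transcript. Star (chr8:25806555-25815982) encodes the protein that moves cholesterol to the inner mitochondrial membrane, the step that limits steroid synthesis. Its level ran from 67.0 to 215 CPM (median 137) in hIAPP and 13.3 to 21.8 CPM (median 17.3) in mIAPP, with no overlap and a rise in 8 of 8 sets (log2 difference 2.94 ± 0.19 (SE), adjusted p = 3.68e-11). Within the sets the log2 difference of CPM plus 0.5 ran from 2.23 in set 7 to 3.71 in set 2.

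Among the genes that rose in 8 of 8 sets were enzymes that set polyamine levels. Odc1, ornithine decarboxylase, the rate-limiting enzyme of polyamine synthesis, ranged over 413 to 838 CPM (median 593) in hIAPP and 132 to 230.3 CPM (median 171) in mIAPP. Odc1 differed by 1.76 ± 0.13 on the log2 scale (SE, adjusted p = 4.84e-10). Sat1, the acetyltransferase that opens polyamine breakdown, ranged over 153 to 406 CPM (median 233) in hIAPP and 44.8 to 61.0 CPM (median 53.6) in mIAPP. Sat1 differed by 2.24 ± 0.17 on the log2 scale (SE, adjusted p = 8.45e-10). A synthesis and a breakdown enzyme rose together, each without overlap between the genotypes and in 8 of 8 sets. The 8 of 8 sets was part of how both were chosen. Of the 10 polyamine genes, 4 of 10 tested members were higher and 0 were lower, with a median log2 difference of -0.014 against -0.0076 over all genes tested. With the mitochondrial covariate the list had 2 higher and 0 lower.

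Other genes of this size encode enzymes and signalling proteins. Inpp5f, a phosphoinositide phosphatase, ran from 207 to 339 CPM (median 274) in hIAPP and 90.6 to 127 CPM (median 106) in mIAPP. Inpp5f differed by 1.30 ± 0.094 on the log2 scale (SE, adjusted p = 2.86e-10). Plat, tissue plasminogen activator, a secreted protease that turns plasminogen into plasmin, ranged over 44.2 to 123 CPM (median 72.8) in hIAPP and 6.34 to 15.1 CPM (median 13.3) in mIAPP. Plat differed by 2.70 ± 0.30 on the log2 scale (SE, adjusted p = 1.07e-06). Diras2, a small GTPase of the Ras superfamily, ranged over 38.3 to 102 CPM (median 76.4) in hIAPP and 8.30 to 32.7 CPM (median 13.2) in mIAPP. Diras2 differed by 2.30 ± 0.20 on the log2 scale (SE, adjusted p = 7.38e-09). Herc4, an E3 ubiquitin ligase, ran from 64.0 to 108 CPM (median 89.2) in hIAPP and 23.8 to 36.6 CPM (median 27.5) in mIAPP. Herc4 differed by 1.54 ± 0.12 on the log2 scale (SE, adjusted p = 8.24e-10). All 4 were higher without overlap between the genotypes. They were also higher in 8 of 8 sets, which was part of how they were chosen.

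**Figure D2:**
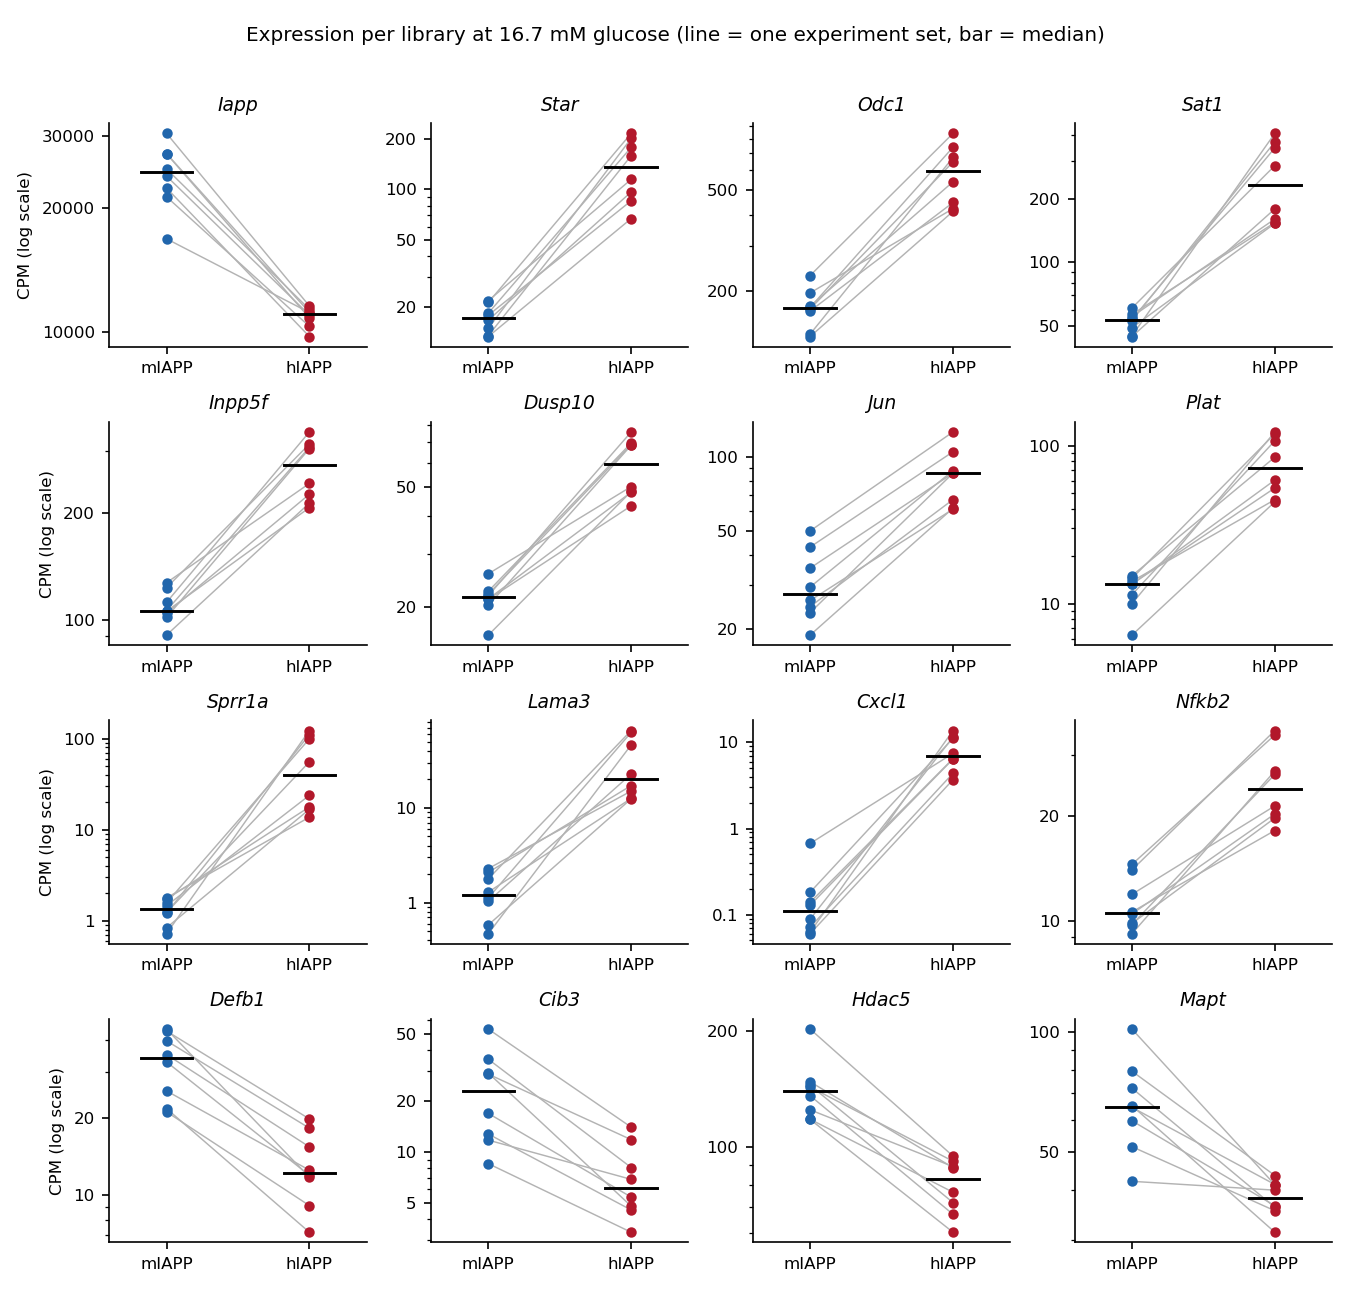
Level in each of the 16 libraries (CPM, log scale) for 16 genes at 16.7 mM; a line joins the libraries of one set and a bar marks the median of 8 libraries. For Star, Odc1, Sat1, Plat and Cxcl1 each red hIAPP point lies above each blue mIAPP point, while for Iapp, Defb1 and Hdac5 it lies below.

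Most tested members of 2 lists of immediate-early and MAP kinase feedback genes were higher. Of the AP-1 and small Maf factors, 8 of 10 tested members were higher and 0 were lower, with a median log2 difference of 0.94. Jun, a core AP-1 subunit, ranged over 61.3 to 126 CPM (median 86.0) in hIAPP and 18.8 to 50.02 CPM (median 27.8) in mIAPP. Jun differed by 1.47 ± 0.11 on the log2 scale (SE, adjusted p = 7.60e-10). Maff, a small Maf partner protein, ranged over 26.1 to 37.5 CPM (median 33.1) in hIAPP and 11.3 to 19.8 CPM (median 13.1) in mIAPP. Maff differed by 1.21 ± 0.12 on the log2 scale (SE, adjusted p = 6.65e-08). Both rose in 8 of 8 sets without overlap. For Jun the 8 of 8 sets was part of how it was chosen. Of the activity and MAP kinase feedback genes, 21 of 30 tested members were higher and 1 was lower, with a median of 0.67. Dusp10 and Dusp8 encode dual-specificity phosphatases that act on the stress kinases JNK and p38. Dusp10 was at 43.2 to 75.8 CPM (median 59.2) in hIAPP and 16.1 to 25.7 CPM (median 21.5) in mIAPP. Dusp10 differed by 1.46 ± 0.10 on the log2 scale (SE, adjusted p = 1.30e-10). Dusp8 was at 45.4 to 80.3 CPM (median 66.1) in hIAPP and 22.0 to 33.9 CPM (median 27.1) in mIAPP. Dusp8 differed by 1.25 ± 0.11 on the log2 scale (SE, adjusted p = 1.32e-08). With the mitochondrial covariate these 2 lists had 6 higher and 0 lower, and 11 higher and 2 lower.

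Among the inflammatory genes, the 2 chemokines with the smallest p rose from levels near the floor of 3 counts per library. Of 31 chemokine genes 16 passed the filter on low counts, and there were 6 members higher and 1 lower of 16 tested. The filter keeps a gene that is expressed in 1 group alone, so this count is not one over the family. With the covariate the list had 4 higher and 0 lower. Cxcl1, a chemokine that attracts neutrophils, was at 3.69 to 13.8 CPM (median 6.98) in hIAPP and 0.0600 to 0.670 CPM (median 0.109) in mIAPP, and Ccl2, which attracts monocytes, was at 2.19 to 6.02 CPM (median 4.50) in hIAPP and 0 to 0.334 CPM (median 0.218) in mIAPP. Neither overlapped between the genotypes (5.63 ± 0.53 and 4.59 ± 0.56 on the log2 scale, SE, adjusted p = 4.26e-08 and 2.02e-06 in edgeR's test). Cxcl2, chosen after its values were seen, was higher in 7 of 8 sets (log2 difference 2.70 ± 0.65 (SE), adjusted p = 0.00517) and was not called with the mitochondrial covariate (adjusted p = 0.0610 in edgeR's test). S100a9, an alarmin abundant in neutrophils, had no count in any of the 8 mIAPP libraries and 0.855 to 22.7 CPM (median 2.84) in the hIAPP libraries. Against the floor of 3 counts per library (0.101 CPM), its hIAPP mean was at least 48.1-fold higher, and at least 24.0-fold higher without set 6, whose hIAPP library held 22.7 CPM.

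NF-kB is a family of transcription factors that answer cytokines and bacterial products, and they induce their own inhibitors and several survival genes. Of its subunits and regulators, 8 of 26 tested members were higher and 1 was lower, with a median of 0.19. Nfkb2, the subunit of the non-canonical branch, ranged over 18.2 to 35.2 CPM (median 23.9) in hIAPP and 9.18 to 14.5 CPM (median 10.5) in mIAPP. Nfkb2 differed by 1.16 ± 0.13 on the log2 scale (SE, adjusted p = 3.03e-07). Birc3, an inhibitor of apoptosis, ranged over 10.8 to 21.8 CPM (median 17.3) in hIAPP and 4.78 to 10.03 CPM (median 8.00) in mIAPP. Birc3 differed by 1.06 ± 0.12 on the log2 scale (SE, adjusted p = 1.12e-06). Both genes rose in 8 of 8 sets without overlap. Tnfaip3, the feedback inhibitor A20, chosen after its values were seen, was higher in 8 of 8 sets (log2 difference 1.37 ± 0.26 (SE), adjusted p = 7.40e-04) but not called with the mitochondrial covariate (adjusted p = 0.127 in edgeR's test). With the covariate the list had 3 higher and 0 lower, and in libraries under 10% mitochondrial 3 higher and 0 lower.

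Cytokine-induced effectors gave 14 members higher and 0 lower of 24 tested, with a median of 1.04. The list has 31 members, and genes near 0 in mIAPP, such as S100a9 and Nos2, passed the filter through the hIAPP libraries, so the count and median are a description of the genes tested alone. Steap4, a metalloreductase of the cell membrane, was at 1.81 to 13.3 CPM (median 7.80) in hIAPP and 0.179 to 0.909 CPM (median 0.386) in mIAPP. Steap4 differed by 3.99 ± 0.33 on the log2 scale (SE, adjusted p = 3.62e-09). Cfb, complement factor B of the alternative pathway, ranged over 11.3 to 108 CPM (median 36.7) in hIAPP and 3.18 to 7.33 CPM (median 4.52) in mIAPP. Cfb differed by 2.87 ± 0.45 on the log2 scale (SE, adjusted p = 1.14e-04). The hIAPP library of set 6 was highest for Cfb, and the groups did not overlap. Nos2, inducible nitric oxide synthase, chosen after its values were seen, was at 0.479 to 3.54 CPM (median 2.64) in hIAPP and 0 to 0.386 CPM (median 0.172) in mIAPP. Nos2 differed by 4.05 ± 0.56 on the log2 scale (SE, adjusted p = 1.08e-05). With the covariate this list had 8 higher and 0 lower. Of the interleukin 1 and inflammasome genes, 7 of 24 tested members were higher and 1 was lower, and with the covariate 1 higher and 1 lower. Il1r1, the interleukin 1 receptor, and Tlr2, a receptor for bacterial lipoproteins, were the members with the smallest p (0.95 ± 0.24 and 0.75 ± 0.19, adjusted p = 0.00674 and 0.00704 in edgeR's test), and neither was called with the covariate (adjusted p = 0.597 and 0.830). Interferon response genes gave 4 members higher and 0 lower of 24 tested (1 higher and 0 lower with the covariate), led by Gbp2 (log2 difference 1.61 ± 0.28 (SE), adjusted p = 2.55e-04).

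The letters upstream of 4 of these genes are shown because they hold matches to the NF-kB or AP-1 motif. Of the 106 genes named here, 67 had a promoter in the RefSeq table, of which 8 held an NF-kB match in the 250 bases before the start and 10 an AP-1 match; the 4 were chosen from these. None of the 5 motifs searched was found for 39 of the 67, among them Odc1, Sat1, Jun and Birc3. Capitals mark the matches, and each sequence is the 150 bases before the RefSeq start (GRCm38.p6), 5′ to 3′ on the gene's strand. Cxcl1 lies at chr5:90891095-90891244 (+), Nfkb2 at chr19:46304587-46304736 (+), Sprr1a at chr3:92485882-92486031 (-) and Srxn1 at chr2:152105374-152105523 (+). The first 2 carry matches to the NF-kB consensus, 2 overlapping ones in Cxcl1 and 3 in Nfkb2, and the others carry 2 matches each to TGANTCA, the AP-1 site.
Cxcl1: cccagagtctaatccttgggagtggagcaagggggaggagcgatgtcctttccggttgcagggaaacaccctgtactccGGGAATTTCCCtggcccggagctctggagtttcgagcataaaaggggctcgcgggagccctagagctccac
Nfkb2: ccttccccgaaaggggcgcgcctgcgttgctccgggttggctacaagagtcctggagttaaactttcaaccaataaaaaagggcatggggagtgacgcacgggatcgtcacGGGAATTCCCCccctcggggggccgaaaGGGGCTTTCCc
Sprr1a: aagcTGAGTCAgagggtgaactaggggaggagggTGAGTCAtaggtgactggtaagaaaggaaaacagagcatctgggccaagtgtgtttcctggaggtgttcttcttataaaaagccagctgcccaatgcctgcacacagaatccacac
Srxn1: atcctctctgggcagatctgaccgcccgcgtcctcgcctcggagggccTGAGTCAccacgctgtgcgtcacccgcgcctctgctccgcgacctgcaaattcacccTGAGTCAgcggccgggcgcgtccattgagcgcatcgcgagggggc
Over the 250 bases before the start of 10575 tested genes with a RefSeq promoter, on both strands, the NF-kB consensus was found in 4.4% of all genes, 7.15% of 1035 higher genes and 4.85% of 1092 lower genes. TGANTCA was found in 4.46%, 6.47% and 3.3%. The cyclic AMP response element TGACGTCA was found in 2.76%, 2.71% and 1.74%, the sterol regulatory element TCACCCCAC in 0.463%, 0.676% and 0.458%, and the antioxidant response element TGACNNNGC in 12%, 14% and 12.6%. A match is a string of letters and no evidence of binding.

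Genes of epithelial injury, among them the basement membrane laminin chain Lama3, gave 12 members higher and 2 lower of 29 tested, with a median of 0.32, and 7 higher and 0 lower with the covariate. Sprr1a, a cornified envelope protein that neurons and muscle also induce after injury, was at 13.7 to 122 CPM (median 39.7) in hIAPP and 0.724 to 1.79 CPM (median 1.35) in mIAPP. Sprr1a differed by 5.11 ± 0.54 on the log2 scale (SE, adjusted p = 6.13e-07). Lama3, the laminin alpha 3 chain, was at 12.5 to 65.6 CPM (median 19.99) in hIAPP and 0.469 to 2.28 CPM (median 1.21) in mIAPP. Lama3 differed by 4.56 ± 0.43 on the log2 scale (SE, adjusted p = 7.52e-08). Within the sets Sprr1a differed by 2.64 (set 7) to 6.65 (set 4) on the log2 scale of CPM plus 0.5, so the size varied between sets while the direction did not. Krt7, a keratin of duct cells, rose by 0.62 ± 0.11 (SE, adjusted p = 2.98e-04 in edgeR's test), and Epcam, an epithelial adhesion molecule, by 0.56 ± 0.11 (adjusted p = 0.00101). With the covariate Epcam differed by 0.24 and was not called (adjusted p = 0.184 in edgeR's test). Both are among the ductal markers, of which there were 3 members higher and 0 lower of 10 tested (1 higher and 0 lower with the covariate). The summed ductal markers were 754 to 1493 CPM (median 1108) in hIAPP and 560.3 to 1054 CPM (median 755) in mIAPP, and their part in the laminin and keratin values was not tested.

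Most genes of cholesterol synthesis rose. Of the synthesis genes and SREBP2 targets, 19 of 24 tested members were higher and 0 were lower, with a median of 0.63. Over all genes tested, 9.27% were higher and 11.2% lower. For 12 members all hIAPP libraries lay above all mIAPP libraries, as they did for 2.39% of all genes tested. Msmo1, a sterol methyl oxidase, ranged over 84.1 to 153 CPM (median 104.7) in hIAPP and 35.5 to 66.6 CPM (median 60.8) in mIAPP. Msmo1 differed by 0.88 ± 0.11 on the log2 scale (SE, adjusted p = 1.56e-06). Sqle, the epoxidase that commits squalene to sterols, ran from 190.5 to 300.2 CPM (median 224) in hIAPP and 77.5 to 176 CPM (median 132) in mIAPP. Sqle differed by 0.84 ± 0.12 on the log2 scale (SE, adjusted p = 1.68e-05). With the mitochondrial covariate the list had 10 higher and 0 lower, and in libraries under 10% mitochondrial 17 higher and 0 lower. Over all genes 2.61% were higher with the covariate and 4.38% in those libraries. In the list that holds Star the pattern was mixed: of the cholesterol import and steroid synthesis genes, 3 of 16 tested members were higher, Star among them, and 4 were lower. With the covariate 1 was higher, Star itself, and 1 lower, Hsd3b2. Hsd3b2, a hydroxysteroid dehydrogenase with close paralogs that share reads, was lower (log2 difference -1.38 ± 0.18 (SE), adjusted p = 5.38e-06). Sterol efflux, storage and LXR genes gave 5 members higher and 2 lower of 17 tested but 0 with the covariate in edgeR's test, where 1 had an unadjusted p under 0.05. Apoe, an apolipoprotein of cholesterol transport, was lower (log2 difference -0.62 ± 0.16 (SE), adjusted p = 0.00782 in edgeR's test, and 0.139 with the covariate). Mylip, a ubiquitin ligase induced by LXR, was higher (log2 difference 0.45 ± 0.13 (SE), adjusted p = 0.0184 in edgeR's test, and 0.370 with the covariate). Scd1, the stearoyl-CoA desaturase, rose (log2 difference 1.36 ± 0.22 (SE), adjusted p = 9.81e-05). It belongs to the ChREBP and lipogenic genes, which gave 7 members higher and 3 lower of 22 tested, with a median of 0.13, and 2 higher and 2 lower with the covariate.

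Genes that mark the beta cell were lower or mixed. Of the beta cell transcription factors, 1 of 19 tested members was higher and 9 were lower, with a median of -0.15 and 0 higher and 5 lower with the covariate. Nkx6-1, which maintains beta cell identity, ranged over 208 to 328 CPM (median 257) in hIAPP and 380.2 to 616 CPM (median 415) in mIAPP. Nkx6-1 differed by -0.71 ± 0.10 on the log2 scale (SE, adjusted p = 1.86e-05). Mlxipl, the glucose-responsive factor ChREBP, ranged over 104 to 218 CPM (median 164) in hIAPP and 140.2 to 435 CPM (median 282) in mIAPP. Mlxipl differed by -0.79 ± 0.12 on the log2 scale (SE, adjusted p = 5.12e-05). Of the glucose sensing and secretion genes, 5 of 33 tested members were higher and 6 were lower, and with the covariate 2 higher and 5 lower. Chgb, a granin of secretory granules, rose (log2 difference 1.00 ± 0.15 (SE), adjusted p = 4.28e-05), and Trpm5, a calcium-activated cation channel, fell (log2 difference -1.08 ± 0.17 (SE), adjusted p = 4.86e-05). Iapp processing and amyloid clearance gave 5 members higher and 4 lower of 21 tested (2 higher and 1 lower with the covariate). The list holds Iapp itself, which is among the 4 lower and is the 1 lower with the covariate. Ramp2, a partner protein that turns the calcitonin receptor into an amylin receptor, rose without overlap (log2 difference 0.74 ± 0.11 (SE), adjusted p = 5.22e-05). The beta cell disallowed genes gave 2 members higher and 2 lower of 22 tested (1 higher and 1 lower with the covariate). Aldh1a3, a marker of dedifferentiated beta cells, was higher (log2 difference 0.89 ± 0.20 (SE), adjusted p = 0.00246) and Maf lower (log2 difference -1.05 ± 0.19 (SE), adjusted p = 3.67e-04), and neither was called with the covariate (adjusted p = 0.189 and 0.0653).

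**Figure D3:**
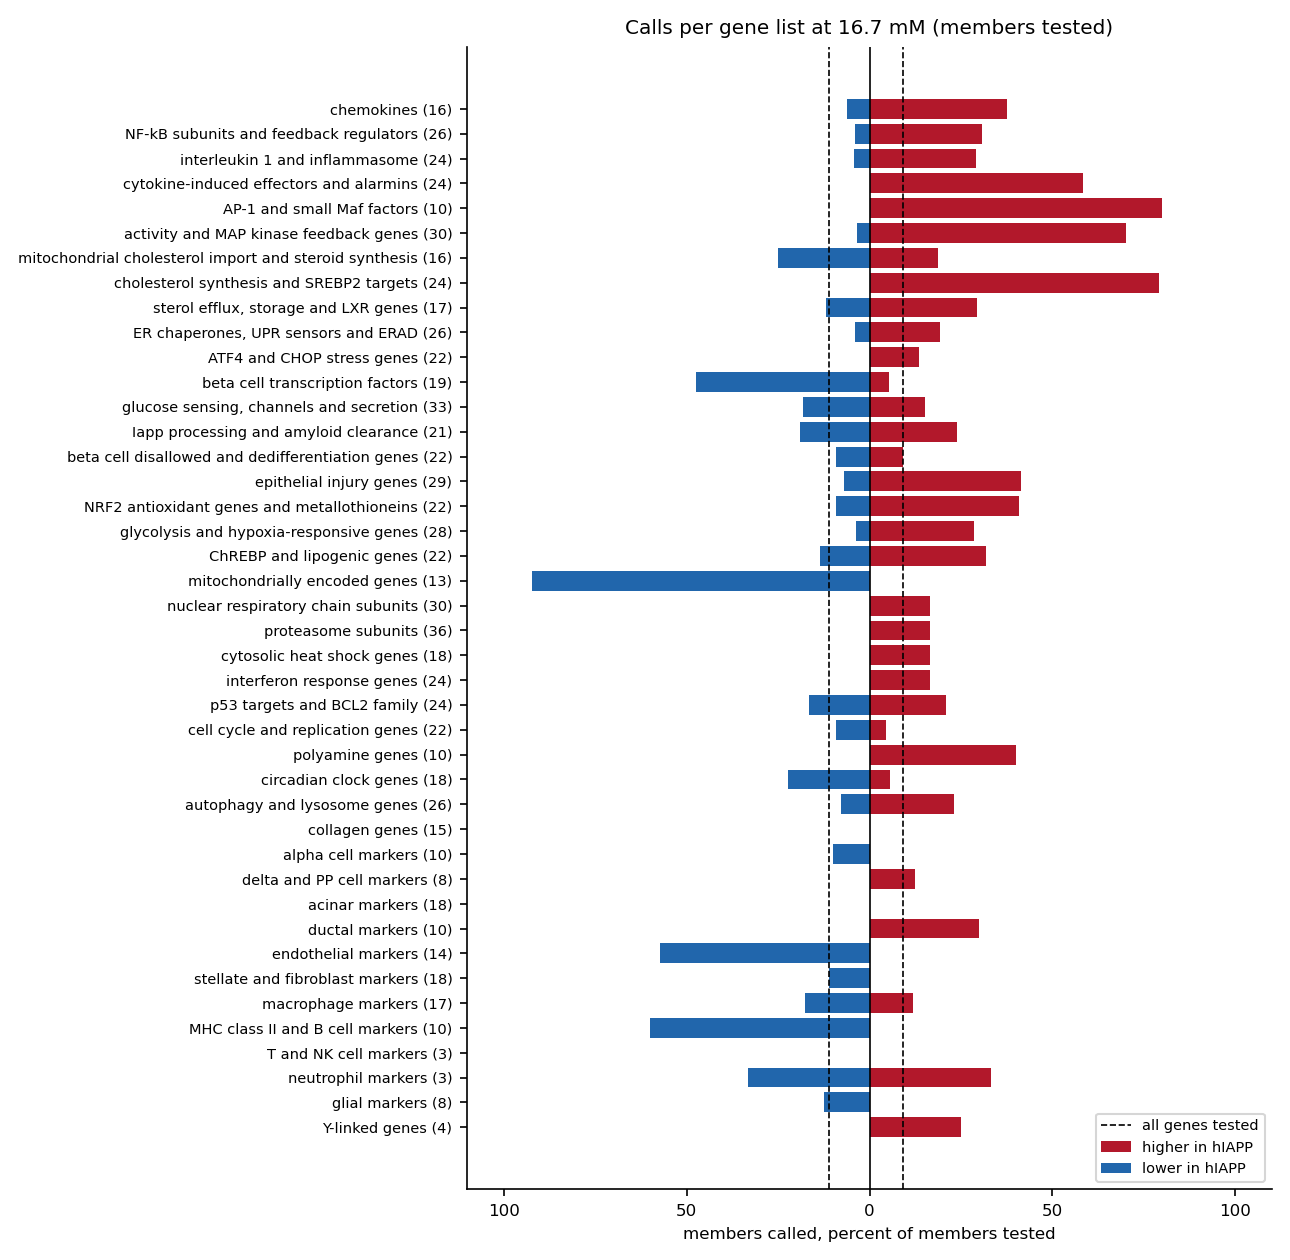
Members called higher (right) and lower (left) in hIAPP at 16.7 mM as a percentage of the members tested in each of 42 lists; dashed lines mark the same for all genes tested, 9.27% higher and 11.2% lower. AP-1 factors and cholesterol synthesis reach farthest to the right and mitochondrially encoded genes farthest to the left.

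Antioxidant, glycolytic and protein quality control groups each held members that rose. NRF2 antioxidant genes gave 9 members higher and 2 lower of 22 tested (2 higher and 0 lower with the covariate), led by Srxn1, which reduces oxidised peroxiredoxins (log2 difference 0.69 ± 0.074 (SE), adjusted p = 2.31e-07), and Txnrd1, thioredoxin reductase (log2 difference 0.49 ± 0.075 (SE), adjusted p = 4.41e-05). Both rose in 8 of 8 sets without overlap. Glycolysis and hypoxia-responsive genes gave 8 members higher and 1 lower of 28 tested (4 higher and 0 lower with the covariate), led by the phosphofructokinase Pfkp (log2 difference 1.05 ± 0.14 (SE), adjusted p = 9.16e-06) and Pfkfb3, which makes its activator (log2 difference 1.01 ± 0.16 (SE), adjusted p = 7.39e-05), each higher in 7 of 8 sets. Of the heat shock genes there were 3 members higher and 0 lower of 18 tested (1 higher and 0 lower with the covariate). Bag3, a co-chaperone of selective autophagy, rose without overlap (log2 difference 0.80 ± 0.085 (SE), adjusted p = 2.26e-07), while Hspa8 was called but lost the call with the covariate (log2 difference 0.29 ± 0.086 (SE), adjusted p = 0.0204; adjusted p = 0.757). Autophagy and lysosome genes gave 6 members higher and 2 lower of 26 tested (2 higher and 1 lower with the covariate). Wipi1, which marks forming autophagosomes, rose by 0.96 ± 0.12 (SE, adjusted p = 3.56e-06 in edgeR's test), and the protease Ctsb by 0.58 ± 0.11 (adjusted p = 5.00e-04).

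For the unfolded protein response, no higher call outlasted the mitochondrial covariate. ER chaperones, sensors and degradation genes gave 5 members higher and 1 lower of 26 tested, and the ATF4 and CHOP genes 3 members higher and 0 lower of 22 tested, against 9.27% higher and 11.2% lower among all genes. With the covariate edgeR called no member of the first list (2 at an unadjusted p under 0.05), and the second had 0 higher and 1 lower. In libraries under 10% mitochondrial the first list had 2 higher and 0 lower, and the second 0 higher and 0 lower. The sensors Ern1 and Eif2ak3 were higher (1.04 ± 0.26 and 0.92 ± 0.20, adjusted p = 0.00636 and 0.00184 in edgeR's test) and were not called with the covariate (adjusted p = 0.563 and 0.317). Both kept their calls in libraries under 10% mitochondrial. Vldlr and Ppp1r15a, the phosphatase subunit that ends translational arrest, were higher (0.37 ± 0.12 and 0.37 ± 0.11, adjusted p = 0.0250 and 0.0254 in edgeR's test), and the covariate ended both calls too (adjusted p = 0.530 and 0.689). Of the p53 and BCL2 family genes there were 5 members higher and 4 lower of 24 tested (1 higher and 0 lower with the covariate). Bcl2l1, the anti-apoptotic BCL-XL, rose without overlap (log2 difference 0.64 ± 0.093 (SE), adjusted p = 2.72e-05). Clock genes gave 1 member higher and 4 lower of 18 tested (1 higher and 2 lower with the covariate), with Bhlhe40, a repressor of the clock, higher (log2 difference 1.11 ± 0.17 (SE), adjusted p = 5.07e-05) and Tef, a clock output factor, lower (log2 difference -0.45 ± 0.098 (SE), adjusted p = 0.00218).

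Several groups lost all of their calls once the mitochondrial share was a covariate. Of the mitochondrially encoded genes, 0 of 13 tested members were higher and 12 were lower, with a median of -1.28. mt-Nd2 and mt-Nd4l, subunits of complex I, fell (-1.38 ± 0.36 and -1.33 ± 0.34, adjusted p = 0.00919 and 0.00775 in edgeR's test), as did mt-Nd4 (-1.34 ± 0.36), mt-Nd6 (-1.34 ± 0.38) and the ATP synthase subunit mt-Atp6 (-1.38 ± 0.41). With the covariate, which is built from these genes, 0 of 13 were called by edgeR and 0 had an unadjusted p under 0.05. Nuclear respiratory chain subunits gave 5 members higher and 0 lower of 30 tested and proteasome subunits 6 members higher and 0 lower of 36 tested, and with the covariate edgeR gave both lists 0 calls, with 1 and 2 members at an unadjusted p under 0.05. Their members with the smallest p were Atp5b (0.31 ± 0.089, adjusted p = 0.0169 in edgeR's test) and Ndufa9 (0.35 ± 0.10, adjusted p = 0.0171), and Psma5 (0.36 ± 0.095, adjusted p = 0.00906) and Psmd12 (0.26 ± 0.076, adjusted p = 0.0185). Cell cycle genes gave 1 member higher and 2 lower of 22 tested, with Pcna higher (log2 difference 0.55 ± 0.13 (SE), adjusted p = 0.00574) and Cdk4 lower (log2 difference -0.38 ± 0.10 (SE), adjusted p = 0.00936), both without a call under the covariate, where edgeR called no member of the list (1 at an unadjusted p under 0.05). Of 15 collagen genes none was called by edgeR, against 1 at an unadjusted p under 0.05, 0 by DESeq2 and 1 by limma voom. The smallest p values belonged to Col4a3 (log2 difference -0.77 ± 0.35 (SE), adjusted p = 0.117) and Col12a1 (log2 difference 0.46 ± 0.31 (SE), adjusted p = 0.292).

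Genes chosen by p or size among those that fell in 8 of 8 sets ranged from a defensin to neuronal and telomere proteins. Defb1, an antimicrobial defensin, ranged over 7.20 to 19.8 CPM (median 12.2) in hIAPP and 21.1 to 44.1 CPM (median 34.0) in mIAPP. Defb1 differed by -1.31 ± 0.13 on the log2 scale (SE, adjusted p = 5.27e-08). Hdac5, a class II histone deacetylase, ran from 60.3 to 94.8 CPM (median 82.5) in hIAPP and 118 to 202 CPM (median 139) in mIAPP. Hdac5 differed by -0.82 ± 0.091 on the log2 scale (SE, adjusted p = 4.26e-07). Neither overlapped. Cib3, a calcium and integrin binding protein, was at 3.35 to 14.0 CPM (median 6.14) in hIAPP and 8.52 to 53.1 CPM (median 22.8) in mIAPP. Cib3 differed by -1.68 ± 0.17 on the log2 scale (SE, adjusted p = 1.52e-07). Its groups overlapped. Mapt, the microtubule protein tau, was at 31.4 to 43.6 CPM (median 38.3) in hIAPP and 42.1 to 101.5 CPM (median 64.9) in mIAPP. Mapt differed by -0.77 ± 0.091 on the log2 scale (SE, adjusted p = 1.21e-06). Dapl1 was at 41.1 to 66.7 CPM (median 49.96) in hIAPP and 59.5 to 318 CPM (median 136) in mIAPP. Dapl1 differed by -1.42 ± 0.17 on the log2 scale (SE, adjusted p = 2.02e-06). For Mapt and Dapl1 the groups overlapped. Both differed little in set 3, by -0.073 and -0.14 on the log2 scale of CPM plus 0.5. Falls in 8 of 8 sets were also found for Otoa (-1.79 ± 0.20), Coq8a, a kinase-like protein needed for coenzyme Q (-0.62 ± 0.076), the telomere protein Terf2 (-0.54 ± 0.068), Pde4c, a cyclic AMP phosphodiesterase whose counts are repeated in a second record of the table (-0.94 ± 0.12), Mid1, a ubiquitin ligase (-1.90 ± 0.31), Cox6a2, a subunit of cytochrome c oxidase (-1.51 ± 0.26), and Cxxc4, an inhibitor of Wnt signalling (-0.56 ± 0.074). Of these, Cox6a2 lost its call with the mitochondrial covariate (adjusted p = 0.0568 in edgeR's test). The olfactory receptor record Olfr775 fell as well (-1.65 ± 0.17), and as a member of a large family it shares reads with near copies.

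**Figure D4:**
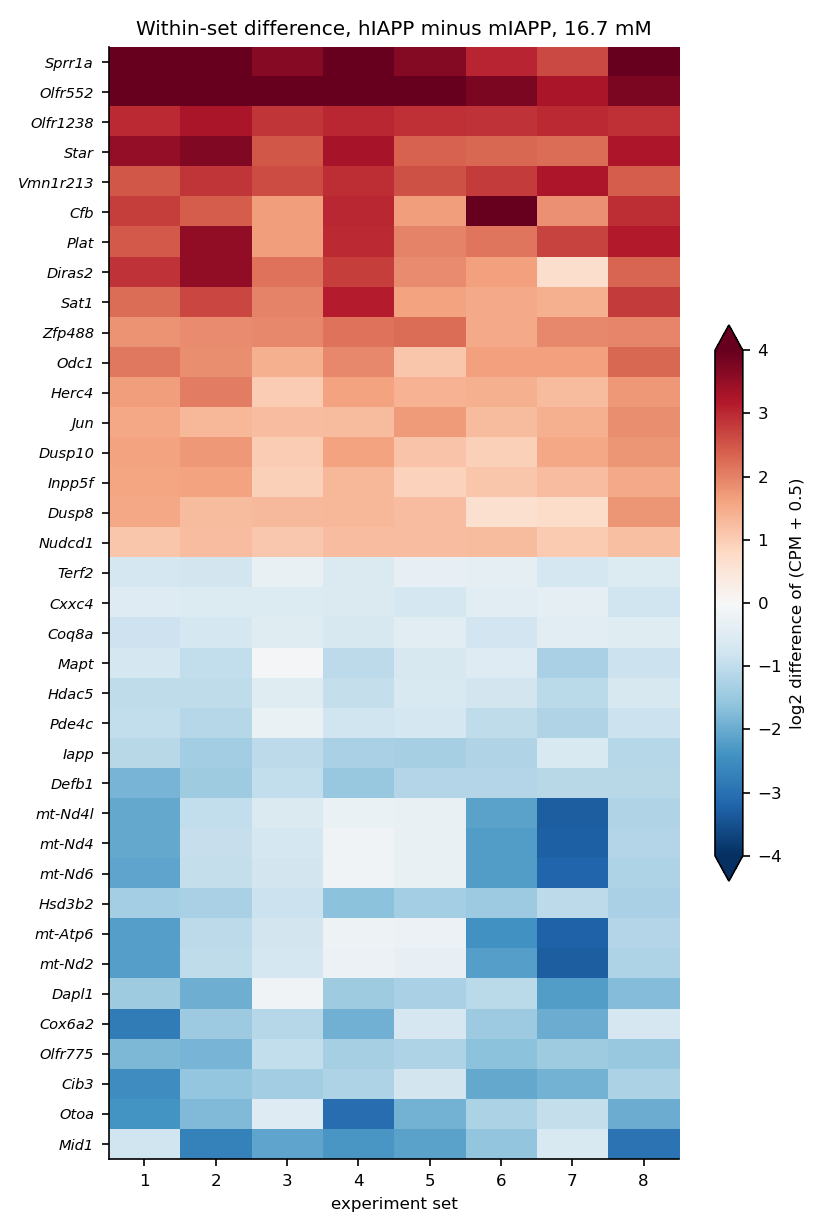
Within-set log2 difference of CPM plus 0.5, hIAPP minus mIAPP, for the genes chosen by p, size or interaction (rows) in each of 8 experiment sets (columns); red is higher and blue lower in hIAPP, and differences past 4 take the end colour. Rows keep one colour across the sets, since 8 of 8 sets in one direction was part of how most were chosen, while their depth varies, as for Sprr1a (2.64 to 6.65).

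The same genotypes at 11.1 mM differed in 21 of 16428 genes (0.128%; 18 higher, 0.11%, and 3 lower, 0.0183%), and the genotype difference itself differed between 16.7 and 11.1 mM for 513 genes (3.12%; 357 positive, 2.17%, and 156 negative, 0.95%). That interaction count was 196 without the set block and 7 in the libraries under 10% mitochondrial. At 11.1 mM those libraries are only the hIAPP ones of sets 3 and 4 and the mIAPP ones of sets 3, 4 and 5. The fall to 7 therefore cannot tell a weaker interaction from the loss of libraries. Of the 3371 calls at 16.7 mM, 501 (14.9%) also passed the interaction. Star differed by 0.19 ± 0.19 at 11.1 mM (adjusted p = 0.826), and its interaction was 2.75 ± 0.26 (adjusted p = 1.35e-06). For Odc1 the values were 0.093 ± 0.13 at 11.1 mM and 1.66 ± 0.18 for the interaction (adjusted p = 5.72e-06), and for Sat1 0.21 ± 0.17 and 2.03 ± 0.24 (adjusted p = 1.30e-05). Defb1 showed 0.058 ± 0.12 at 11.1 mM and an interaction of -1.37 ± 0.18 (adjusted p = 3.64e-05). All of these p-values are from edgeR's test over all genes.

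A second kind of gene differed at both concentrations. Zfp488, a zinc finger repressor, was at 138 to 163 CPM (median 156) in hIAPP and 32.03 to 49.9 CPM (median 40.7) in mIAPP at 16.7 mM (log2 difference 1.94 ± 0.11 (SE), adjusted p = 1.96e-12) and differed by 1.51 ± 0.11 at 11.1 mM, with an interaction adjusted p of 0.124. Nudcd1 was at 95.2 to 109 CPM (median 104) in hIAPP and 41.7 to 49.2 CPM (median 44.9) in mIAPP (log2 difference 1.18 ± 0.083 (SE), adjusted p = 1.45e-10) and differed by 1.00 ± 0.083 at 11.1 mM (interaction adjusted p = 0.434). The receptor records Olfr552 (4.20 ± 0.23), Olfr1238 (3.09 ± 0.15) and Vmn1r213 (2.88 ± 0.15) were higher in hIAPP in 8 of 8 sets without overlap at 16.7 mM, and by 3.16 ± 0.22, 2.30 ± 0.15 and 2.00 ± 0.15 at 11.1 mM. For these records 8 of 8 sets in one direction was part of how they were chosen. Olfr552, Olfr1238 and Vmn1r213 also passed edgeR's interaction test (adjusted p under 0.05). Their log2 differences were larger at 16.7 mM, by 1.05, 0.79 and 0.88. They are members of large receptor families whose reads near copies can share. Mid1 was lower by -1.90 ± 0.31 at 16.7 mM and -1.80 ± 0.31 at 11.1 mM (interaction adjusted p = 0.926).

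**Figure D5:**
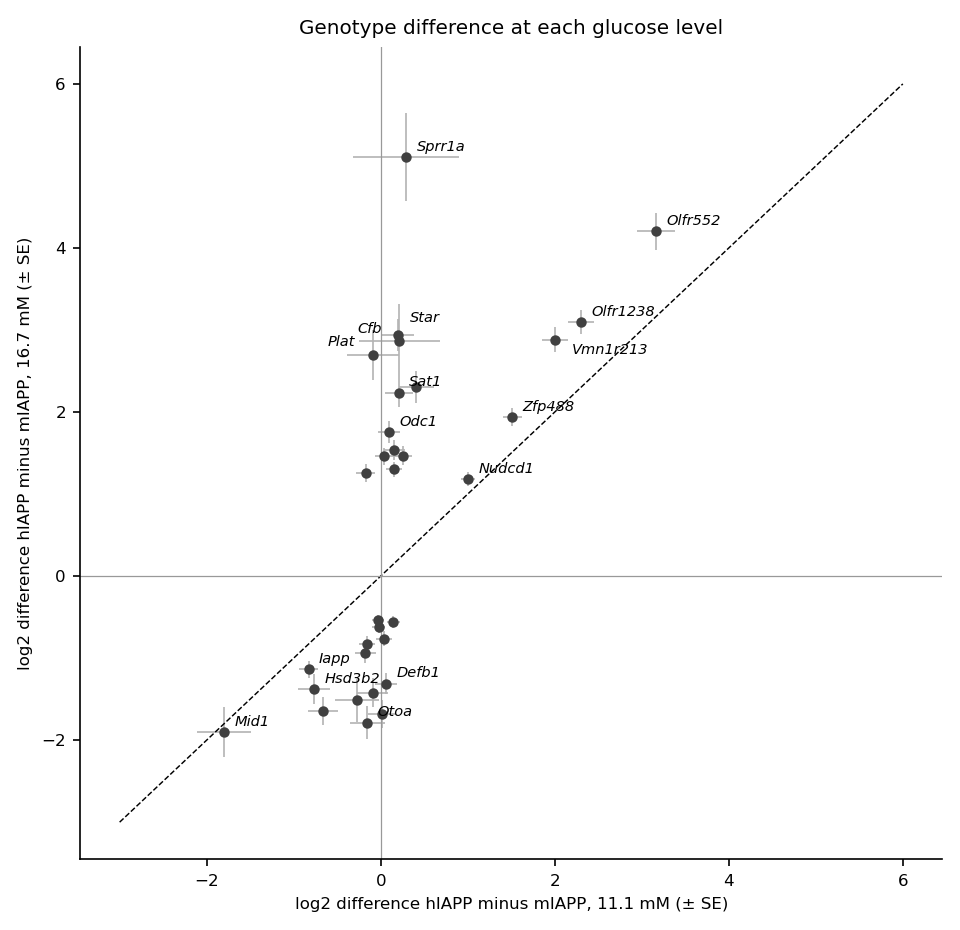
Genotype difference (log2, hIAPP minus mIAPP, with SE) at 11.1 mM (x) and 16.7 mM (y) for the same genes without the mitochondrially encoded ones; the dashed line marks equal differences. Star, Odc1, Sat1 and Plat sit near 0 on the x axis, while Zfp488, Nudcd1, Olfr1238 and Mid1 lie nearer the line.

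Other cell types in the islets were followed by their markers, and in whole islets fewer cells of a type and less RNA per cell cannot be told apart. Endothelial markers gave 0 members higher and 8 lower of 14 tested, with a median of -0.70 and 0 higher and 3 lower with the covariate. Their sum was 27.6 to 79.4 CPM (median 61.7) in hIAPP and 53.1 to 176 CPM (median 96.3) in mIAPP. Flt1, a VEGF receptor, was at 2.70 to 11.2 CPM (median 7.49) in hIAPP and 6.60 to 27.8 CPM (median 14.5) in mIAPP. Flt1 differed by -1.14 ± 0.22 on the log2 scale (SE, adjusted p = 6.69e-04). Pecam1, an adhesion molecule of endothelial junctions, was at 2.98 to 9.52 CPM (median 7.13) in hIAPP and 6.27 to 43.2 CPM (median 13.8) in mIAPP. Pecam1 differed by -1.16 ± 0.22 on the log2 scale (SE, adjusted p = 5.36e-04). With the covariate Pecam1 differed by -0.68 and was not called (adjusted p = 0.1005 in edgeR's test), nor was it in libraries under 10% mitochondrial (adjusted p = 0.0526). MHC class II and B cell markers gave 0 members higher and 6 lower of 10 tested, with a sum of 16.9 to 52.2 CPM (median 40.4) in hIAPP and 37.0 to 89.0 CPM (median 62.5) in mIAPP. Cd74, the class II invariant chain, and Cd79a, of the B cell receptor, were lower (-0.84 ± 0.17 and -0.88 ± 0.19, adjusted p = 8.58e-04 and 0.00212 in edgeR's test). With the covariate edgeR called no member of this list. An unadjusted p under 0.05 was then found for 7 of the 10, against 2444 of 16428 genes. In libraries under 10% mitochondrial the list had 0 higher and 5 lower. Macrophage markers gave 2 members higher and 3 lower of 17 tested, with a median log2 difference of 0.060 and a range of -1.08 to 1.20. Their sum was 116 to 248 CPM (median 171) in hIAPP and 125 to 269.6 CPM (median 194) in mIAPP. With the covariate edgeR called no macrophage marker (5 at an unadjusted p under 0.05). The members with the smallest p both fell, so they do not stand for the list. Aif1 and Cx3cr1 of resident macrophages were lower (-1.08 ± 0.21 and -0.70 ± 0.16, adjusted p = 0.00101 and 0.00378 in edgeR's test), and neither was called with the covariate (adjusted p = 0.242 and 0.112). The part of these cells in the chemokine and cytokine values was not tested.

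The remaining marker lists held few calls. Of 10 neutrophil markers 3 were tested, with S100a9 higher and Cxcr2 lower (log2 difference -0.96 ± 0.23 (SE), adjusted p = 0.00434). Cxcr2 differed by -0.33 with the covariate and was not called (adjusted p = 0.546 in edgeR's test), nor was it in libraries under 10% mitochondrial (adjusted p = 0.0883). T and NK cell markers had 3 of 10 members tested and none called by edgeR (1 at an unadjusted p under 0.05, 0 by DESeq2 and 0 by limma voom), with the smallest p for Cd4 (log2 difference -0.81 ± 0.38 (SE), adjusted p = 0.126) and Lck (log2 difference 0.45 ± 0.28 (SE), adjusted p = 0.247). Alpha cell markers gave 0 members higher and 1 lower of 10 tested (0 higher and 1 lower with the covariate), with Slc7a2 (log2 difference -0.37 ± 0.13 (SE), adjusted p = 0.0457) ahead of Irx2 (log2 difference 0.51 ± 0.23 (SE), adjusted p = 0.114). Delta and PP cell markers gave 1 member higher and 0 lower of 8 tested (1 higher and 0 lower with the covariate). Rgs2, a regulator of G protein signalling, was higher (log2 difference 0.88 ± 0.11 (SE), adjusted p = 5.38e-06), and Ghsr, the ghrelin receptor, was not called (log2 difference 0.65 ± 0.44 (SE), adjusted p = 0.287). Of 18 acinar markers none was called by edgeR, against 1 at an unadjusted p under 0.05, 0 by DESeq2 and 0 by limma voom (Ctrl -0.87 ± 0.35, adjusted p = 0.0761 in edgeR's test). Stellate and fibroblast markers gave 0 members higher and 2 lower of 18 tested, Thy1 (-0.85 ± 0.22) and Rgs5 (-0.77 ± 0.24). With the covariate neither was called (-0.34 and -0.91, adjusted p = 0.554 and 0.123 in edgeR's test), which left the list with 0 higher and 0 lower (2 at an unadjusted p under 0.05). Glial markers gave 0 members higher and 1 lower of 8 tested (0 higher and 1 lower with the covariate).

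Y-linked genes were read as a check on the mix of sexes. The 4 genes summed to 26.2 to 176 CPM (median 123) in hIAPP and 8.15 to 178 CPM (median 132) in mIAPP, and both genotypes had their lowest sums in sets 2, 4 and 8. The sums were 85.4 CPM in hIAPP and 156 CPM in mIAPP in set 3, and 171 and 120 CPM in set 5. Eif2s3y differed within these sets by -1.22 and 0.46 on the log2 scale of CPM plus 0.5. Whether the mix of sexes was equal within each set was not tested. Kdm5d alone was called, also with the covariate (log2 difference 1.04 ± 0.18 (SE), adjusted p = 2.30e-04), at 25.4 to 54.9 CPM (median 33.3) in hIAPP and 7.16 to 31.8 CPM (median 26.7) in mIAPP, while Eif2s3y was at 0.0626 to 58.6 CPM (median 37.8) in hIAPP and 0 to 65.7 CPM (median 47.2) in mIAPP. Eif2s3y differed by -0.29 ± 0.30 on the log2 scale (SE, adjusted p = 0.5004). The hIAPP sums of sets 2, 4 and 8 were 27.4, 26.2 and 27.0 CPM, so Kdm5d made up most of each. Its within-set log2 differences were largest in these sets (1.77, 1.62 and 1.78), against -0.17 to 0.92 in the others. The Kdm5d value is therefore no check on sex, and its source was not tested.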

How the data were processed

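Poly(A) RNA from cultured islets was sequenced in 32 libraries (8 sets of 4 groups). The deposited table holds estimated counts per gene, made by the authors with kallisto 0.45.0 on GRCm38 after bcl2fastq 1.8.4, per the submitters' processing notes; the step from transcripts to genes is not given in the sources used here. The expected counts were rounded to whole numbers. Of 36595 genes, 36047 matched GENCODE M21, and 404 records with over 100 counts share all 32 values with another record, of which 357 were tested and 72 called.

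edgeR 4.0.16 (R 4.3.3, TMM, filterByExpr, robust quasi-likelihood test, adjusted p under 0.05) was fitted to all 32 libraries with group and set terms (21 residual degrees of freedom). The set block comes from the labels, which say that each set held all 4 groups; deviations of same-set libraries correlated at -0.039 to 0.41 (median 0.30), so the pairing rests on the labels. The fit was also run on simulated counts. These held no differences between sets and no variation in mitochondrial share, so that run cannot judge the block or the covariate. Alternatives used DESeq2 1.42.0, limma 3.58.1 and other filters, scalings and subsets.

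The comparison, the 30 gene lists and the 12 marker lists were chosen with earlier results of these data known. The naming rule took Iapp and Star; up to 12 genes a direction by p, at 5 CPM and 8 of 8 sets; up to 8 by size at 20 CPM; up to 6 a direction by interaction; and list members by p, called or not. The text gives the first parts whole and the 2 members with the smallest p from each list. Reading 2 a list, where the rule allows up to 6, was chosen after values were seen, as were Cxcl2, Tnfaip3, Nos2, the printed promoters and the limit of 1000 bases between RefSeq and GENCODE starts. Some list members that the rule names are not reported here. Estimated counts carry no molecular identifiers, so floors cover counting error only.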

Additional observations from a re-analysis of the deposited data

Results flagged for a closer look

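For 57 named genes the genotype difference at 16.7 mM differed from that at 11.1 mM by edgeR's interaction test (adjusted p under 0.05). The genes were partly chosen by this test and by their calls at 16.7 mM, so their number says nothing about the series. The positive interaction differences, as log2 values, were Star 2.75, Olfr1238 0.79, Vmn1r213 0.88, Olfr552 1.05, Dusp10 1.43, Inpp5f 1.15, Odc1 1.66, Jun 1.22, Herc4 1.38, Sat1 2.03, Sprr1a 4.81 and Cfb 2.65. Further positive log2 differences were Plat 2.79, Diras2 1.90, Dusp8 1.42, Cxcl1 5.84, Ccl2 4.19, Nfkb2 1.31, Birc3 0.91, Steap4 4.06, S100a9 10.62, Maff 1.33, Msmo1 0.77 and Sqle 0.76. To these add the log2 values of Chgb 0.85, Ramp2 0.98, Lama3 4.33, Srxn1 0.68, Txnrd1 0.51, Pfkp 0.85, Scd1 1.27, Bag3 0.85, Gbp2 1.50, Bcl2l1 0.72, Bhlhe40 1.22 and Wipi1 1.04. The remaining positive log2 values were Rgs2 0.73, Krt7 0.69 and Nos2 4.24. The negative ones were Defb1 -1.37, Cib3 -1.70, Olfr775 -0.98, Hdac5 -0.66, Otoa -1.63, Mapt -0.80, Coq8a -0.60, Dapl1 -1.33, Terf2 -0.51, Pde4c -0.76, Cxxc4 -0.71 and Apoe -0.91. Other negative log2 differences were Nkx6-1 -0.57, Mlxipl -0.71, Trpm5 -1.17, Aif1 -1.31, Cx3cr1 -0.89 and Cd74 -0.82. For S100a9 the fitted value rests on libraries without counts and is no measure of size.

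Single libraries stood far from the other 7 of their group in 32 of 218 groups of 8 checked, where about 5% would be flagged by chance. Most belonged to the mIAPP library of set 7, in which mitochondrially encoded genes took 37.0% of counts, the next mIAPP library being at 13.4%. In that library mt-Nd2 was at 31736 CPM, mt-Atp6 at 46618, mt-Nd6 at 26152, mt-Nd4 at 57062 and mt-Nd4l at 7143 CPM. High values there were Diras2 at 32.7, Hdac5 at 202, Dapl1 at 318, Terf2 at 74.4, Cox6a2 at 449, Nkx6-1 at 616, Maf at 4.51, Pfkfb3 at 17.7, Cxcl1 at 0.670, Cxcl2 at 0.983, Col4a3 at 2.01, Pecam1 at 43.2, Thy1 at 54.7 and Cd4 at 0.983 CPM. Low values there were Hsd3b2 at 5.94, Birc3 at 4.78, Msmo1 at 35.5, Psma5 at 31.0 and Epcam at 56.9 CPM. The hIAPP library of set 6 was high for Cfb (108 CPM), S100a9 (22.7 CPM) and Rgs5 (40.7 CPM). Elsewhere Vmn1r213 was at 31.5 CPM in hIAPP set 2, Mid1 at 61.9 CPM in hIAPP set 1, Cfb at 7.33 CPM in mIAPP set 2 and Ctsb at 519 CPM in mIAPP set 1.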

How the results depend on the processing

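The 3371 calls at 16.7 mM became 1301 with no replicate block, 752 with the mitochondrial covariate, 1133 in libraries under 10% mitochondrial and 2108 without the mIAPP library of set 7. Leaving out one set at a time gave 1623 to 3841 calls, with 1623 without set 1, 2215 without set 2, 1852 without set 6 and 1943 without set 7; fewer libraries remain in these fits, and the cause was not tested otherwise. The share of calls that were higher in hIAPP was 45.2% as reported, 39.1% with upper quartile scaling, 57.0% with the covariate, 66.3% under 10% mitochondrial and 55.5% without set 7. The 21 calls at 11.1 mM became 35 with DESeq2, 12 among genes with a mean of 5 CPM or more, and 10 under 10% mitochondrial. At 11.1 mM that limit keeps only the hIAPP libraries of sets 3 and 4 and the mIAPP libraries of sets 3, 4 and 5. The interaction under 10% mitochondrial rests on the same few libraries. The 513 interaction calls became 196 without the block, 959 with DESeq2, 929 with limma voom, 260 with the covariate and 7 under 10% mitochondrial; leaving out sets gave 239 to 558, with 239, 310, 280 and 337 without sets 1, 2, 6 and 8. Against the insulin share difference of -1.55 points, leaving out sets gave -2.52 to -1.19, and it was -2.52 (exact permutation p = 0.031) without set 7 and -3.39 outside mitochondrially encoded counts. Under the covariate the log2 differences of mt-Atp6 (0.076), mt-Nd6 (0.010), Col4a3 (0.0076), Col12a1 (-0.23) and Eif2s3y (0.25) had the other sign, as had Col12a1 under 10% mitochondrial (-0.079); of these, mt-Atp6 and mt-Nd6 were called as reported. Of the 98 named genes called as reported, 20 lost the call without the replicate block, none with a change of direction: Il1r1, Tlr2, Apoe, Mylip, Eif2ak3, Ern1, Vldlr, Ppp1r15a, Atp5b, Ndufa9, Psma5, Psmd12, Hspa8, Pcna, Slc7a2, Thy1, Rgs5, Aif1, Cx3cr1 and Kdm5d. Without set 1 the calls of mt-Atp6, mt-Nd6, Vldlr, Ppp1r15a, Atp5b, Ndufa9, Psmd12, Hspa8, Slc7a2, Thy1 and Rgs5 were lost, without set 6 those of mt-Atp6, mt-Nd6, mt-Nd4, Mylip, Vldlr, Ppp1r15a, Psmd12, Hspa8 and Slc7a2, and without set 7 those of mt-Nd2, mt-Atp6, mt-Nd6, mt-Nd4, Mylip, Atp5b, Ndufa9, Psmd12, Hspa8 and Thy1. Leaving out set 2 ended the calls of Vldlr, Slc7a2 and Rgs5, set 3 of Slc7a2 and Rgs5, set 4 of Slc7a2, set 5 of Rgs5 and set 8 of Ppp1r15a, Slc7a2 and Rgs5.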
